A study of Mus musculus with 10 samples.

Results

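Haem oxygenase 1 and 9 other genes of the NRF2 antioxidant pathway were followed after treatment of a macrophage-like mouse line, RAW264.7, with 4 glucocorticoids. The members, chosen by gene name among the probes that are not controls, were Hmox1, Sqstm1, Srxn1, Prdx1, Gsr, Txnrd1, Gclc, Gclm, Slc7a11 and Nfe2l2: 10 of the 36413 gene names on the array, read by 13 of 55681 probes. The groups, with 2 arrays each, were Dex (dexamethasone), FF (fluticasone furoate), VSG22, VSGC12 and the solvent group EtoH. Dex and FF are used as medicines, while VSG22 and VSGC12 carry code names only and no structure is given for them. Each glucocorticoid was given at 100 nM, 1 hour ahead of lipopolysaccharide (LPS, which comes from the outer membrane of bacteria and triggers inflammatory signalling) at 1 µg/ml, and the LPS exposure lasted 16 hours. The labels do not state whether the EtoH cells received LPS, and no group is labelled as unstimulated. EtoH is therefore read as solvent without glucocorticoid in each comparison. If the EtoH cells had no LPS, comparisons with EtoH would hold LPS and glucocorticoid together. The labels also do not state whether the 2 arrays of a group came from separate cultures. The p-values therefore measure the spread between these arrays, which may be technical.

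NRF2, the protein of Nfe2l2, is a transcription factor that KEAP1 holds in the cytoplasm and passes to a CUL3 and RBX1 ubiquitin ligase for degradation. Electrophiles and oxidants free it, and with a small MAF protein it then binds antioxidant response elements in the promoters of genes for haem breakdown, glutathione synthesis and peroxide reduction. BACH1 competes for the same elements and represses them. Several of these genes, Hmox1 among them, are also induced in macrophages by LPS.

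The arrays read labelled RNA through 60-base probes. The Sqstm1 and Gclm probes are shown because each is the gene's only probe. The Hmox1 probe shown is the dimmer of the gene's pair, a second reading of its fall, while the main Hmox1 values come from the brighter probe A_51_P263965, which is not shown. The files place them on mm9. No part is in capitals since a probe acts as a whole. The Hmox1 probe lies at chr8:77620797-77620856 on the plus strand and the Sqstm1 probe at chr11:50015985-50016044 on the minus strand. The Gclm probe, on the plus strand, spans 2636 bases of chr3:121962174-121964809 although it is 60 bases long, so its letters do not lie in 1 run in the genome.
Hmox1 probe A_55_P2029687: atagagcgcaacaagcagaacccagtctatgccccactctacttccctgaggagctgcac
Sqstm1 probe A_55_P2069714: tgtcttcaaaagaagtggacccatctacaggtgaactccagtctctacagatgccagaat
Gclm probe A_51_P320089: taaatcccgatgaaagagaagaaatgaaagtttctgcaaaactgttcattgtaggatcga

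Promoters were searched for the core of the antioxidant response element, TGACNNNGC, and for the AP-1 site TGANTCA, on both strands. The table used, from RefSeq on GRCm38.p6, gives 250 bases before and 50 after a gene's start, and 7 of the 10 members matched it with 9 promoters. Hmox1, Gsr and Gclc had no promoter in it and were not searched. The element core was found in 5 members (Gclm, Nfe2l2, Prdx1, Srxn1 and 1 of the 3 Txnrd1 promoters), and in 12.4% of all 32851 promoters in the table. The AP-1 site was found in 2 members, Prdx1 and Srxn1, and in 7.81% of all promoters. These shares count promoters, while the member counts are of genes, and Txnrd1 has 3 promoters. The members were also chosen as genes of the NRF2 pathway, so neither count is read as an excess. A core and an AP-1 site can overlap, as they do 133 bases upstream of the Prdx1 start. The other Prdx1 AP-1 match begins 237 bases upstream, and the Srxn1 AP-1 matches begin 102 and 45 bases upstream. The Srxn1 core lies downstream of the start and is not shown. The Gclm core begins 134 bases upstream, the Txnrd1 core 92 and the Nfe2l2 core 240. Sqstm1 and Slc7a11 held neither set of letters in these windows. The 250 bases upstream of 3 members that fell (Prdx1, Srxn1 and Sqstm1) and of Gclm, which holds a core and did not pass the test, are set beside each other, with matches in capitals. They lie at chr4:116685349-116685598 (Prdx1, plus strand), chr2:152105274-152105523 (Srxn1, plus strand), chr11:50210821-50211070 (Sqstm1, minus strand) and chr3:122245307-122245556 (Gclm, plus strand).
Prdx1 upstream: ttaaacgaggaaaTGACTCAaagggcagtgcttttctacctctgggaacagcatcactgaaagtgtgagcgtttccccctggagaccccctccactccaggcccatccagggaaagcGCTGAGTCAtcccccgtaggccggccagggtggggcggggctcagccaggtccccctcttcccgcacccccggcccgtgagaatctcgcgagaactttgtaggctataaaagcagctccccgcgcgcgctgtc
Srxn1 upstream: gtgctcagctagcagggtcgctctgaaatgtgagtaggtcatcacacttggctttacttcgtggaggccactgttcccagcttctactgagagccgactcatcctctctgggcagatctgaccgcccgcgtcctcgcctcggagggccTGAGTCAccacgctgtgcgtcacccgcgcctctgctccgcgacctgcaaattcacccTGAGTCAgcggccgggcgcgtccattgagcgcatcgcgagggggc
Sqstm1 upstream: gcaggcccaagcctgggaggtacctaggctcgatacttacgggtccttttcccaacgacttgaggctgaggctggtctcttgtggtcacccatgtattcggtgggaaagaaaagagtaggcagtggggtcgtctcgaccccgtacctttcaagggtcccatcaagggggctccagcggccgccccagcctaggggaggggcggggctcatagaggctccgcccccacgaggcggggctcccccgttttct
Gclm upstream: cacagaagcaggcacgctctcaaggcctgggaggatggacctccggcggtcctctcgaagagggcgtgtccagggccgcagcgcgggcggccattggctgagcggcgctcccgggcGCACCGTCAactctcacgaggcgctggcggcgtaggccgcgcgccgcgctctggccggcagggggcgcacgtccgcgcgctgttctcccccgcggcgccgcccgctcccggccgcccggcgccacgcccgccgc

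The 13 probes were well above background on all 10 arrays. Per array, 40.05% to 44.45% of non-control spots passed that mark, and the number of arrays limits the precision. Replicates correlated across genes with r from 0.982 (Dex) to 0.995, and replicate differences had an SD of 0.63 on the log2 scale in Dex and 0.33 to 0.41 in the other groups. All 9 macrophage markers were well above background on all 10 arrays. None of the 5 epithelial and none of the 4 B cell markers was above background on any array. Of 4 T cell markers, Cd3e and Cd4 were above background on all 10 arrays and Cd3d and Cd8a on none. Of 5 fibroblast markers, Col1a1, Col1a2 and Pdgfra were above background on no array, Col3a1 on 2 of 8 treated arrays, and Dcn on 6 of 8 treated and 2 of 2 EtoH arrays. Of 4 neutrophil and mast cell markers, Kit was above background on no array, Mpo on 1, Cpa3 on 2 and Elane on all 10.

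Against EtoH, 4 of the 10 genes fell, 1 rose and 5 did not pass the test in the mean of the 4 glucocorticoids. Hmox1 fell most, to 3.64-fold below EtoH, followed by Sqstm1, Srxn1 and Prdx1, while Gsr rose. The genes of glutathione synthesis and cystine uptake, Txnrd1 and Nfe2l2 itself did not pass the threshold. Adjusted p-values come from limma with Benjamini-Hochberg adjustment over all genes tested, and a gene was called at an adjusted p under 0.05. The same comparison called 44.2% of the 18031 genes tested, so 5 of 10 is near the background. Split by direction, 22.5% of genes were called lower, against 4 of the 10 members, and 21.6% higher, against 1 of 10. The median change of the 10 was -0.23, against 0 for all genes. The members were chosen with earlier results of these data known, so neither contrast is read as an excess. All changes are differences of log2 signal, and on these bulk RNA samples fewer cells making a transcript and less of it per cell cannot be told apart.

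**Figure D1:**
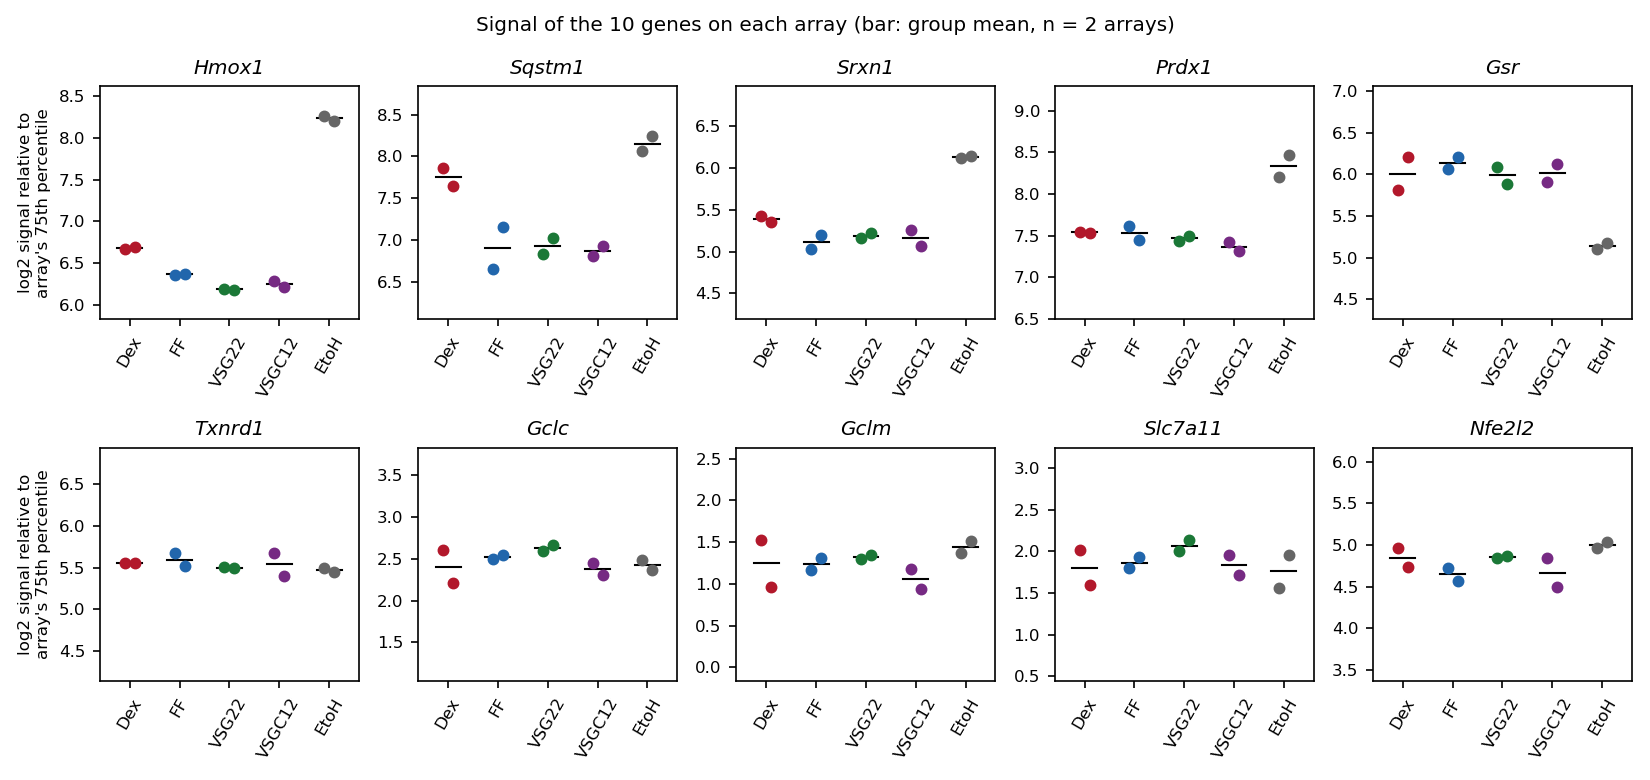
Log2 signal of the 10 genes relative to each array's own 75th percentile, by group, with 1 point per array and a bar at the mean of 2 arrays; every panel spans the same log2 range. Hmox1, Srxn1, Prdx1 and Sqstm1 lie lower on the glucocorticoid arrays than on the EtoH arrays, Gsr lies higher, and the Dex points of Sqstm1 lie nearest to EtoH.

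Hmox1, which breaks haem down to biliverdin, carbon monoxide and iron, was bright on every array and lower on every treated array than on the EtoH arrays. Given as multiples of an array's 75th percentile, its signal was 102 and 104 on Dex, 82.3 and 82.7 on FF, 73.1 and 72.5 on VSG22, and 78.3 and 74.7 on VSGC12 arrays, against 308 and 296 on EtoH arrays. The 8 treated arrays lay far below the EtoH pair, and Dex was the highest of the treated groups. The change for the mean of 4 was -1.86 ± 0.05 (log2, SE, adjusted p = 4.4e-06), with -1.89 on slide 1 and -1.84 on slide 2, each of which held 1 array of every group. By compound it was -1.55 for Dex, -1.87 for FF, -2.05 for VSG22 and -1.98 for VSGC12, each called.

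A second Hmox1 probe, whose sequence is given above, fell by 2.13 ± 0.13 on the log2 scale in the mean of 4 (SE, adjusted p = 5.3e-05). On it Dex changed by -1.51, FF by -2.37, VSG22 by -2.29 and VSGC12 by -2.36. Both probes therefore put Dex closest to EtoH, while the order of the other 3 compounds differed between them.

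Sqstm1 encodes p62, an autophagy adaptor that binds KEAP1 and is itself an NRF2 target. Its signal was 232 and 200 times the 75th percentile on Dex, 101 and 142 on FF, 114 and 130 on VSG22, and 113 and 122 on VSGC12 arrays, against 267 and 303 on EtoH arrays. The Dex arrays lay below EtoH but above all 6 arrays of the other compounds. Sqstm1 changed by -1.04 ± 0.14 in the mean of 4 (log2, SE, adjusted p = 0.0014), by -1.25 in FF, -1.23 in VSG22 and -1.28 in VSGC12, each called. In Dex the change was -0.40, with an interval of -0.82 to 0.02 and an adjusted p of 0.12, and it was not called. Within slides the Dex value was -0.21 on slide 1 and -0.60 on slide 2.

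Prdx1 and Srxn1 belong to peroxide removal: peroxiredoxin 1 reduces hydrogen peroxide, and sulfiredoxin restores peroxiredoxins that have been over-oxidised. Srxn1 signal was 43 and 40.7 times the 75th percentile on Dex, 32.7 and 36.7 on FF, 35.7 and 37.2 on VSG22, and 38.2 and 33.6 on VSGC12 arrays, against 69.6 and 70.5 on EtoH arrays. Prdx1 signal was 188 and 184 times the 75th percentile on Dex, 197 and 175 on FF, 174 and 181 on VSG22, and 172 and 160 on VSGC12 arrays, against 295 and 353 on EtoH arrays. Neither gene's treated arrays overlapped EtoH. Srxn1 changed by -0.92 ± 0.08 (log2, SE, adjusted p = 2e-04) in the mean of 4, between -0.74 in Dex and -1.02 in FF, with all 4 compounds called. Prdx1 changed by -0.86 ± 0.09 (log2, SE, adjusted p = 0.00045), between -0.80 and -0.96, also called with all 4. When arrays were scaled by their medians, Prdx1 kept its call with none of the compounds taken singly (adjusted p from 0.058 to 0.099) and Srxn1 with FF only, while both kept it in the mean of 4. The dimmer Prdx1 probe fell by 1.27 ± 0.13 on the log2 scale (SE, adjusted p = 0.00044). That probe lay in a local patch on FF replicate 2, meaning that 3 or more of its 24 neighbouring spots exceeded background on that array and on no array of another group.

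Txnrd1, the cytosolic thioredoxin reductase that keeps thioredoxin reduced for peroxiredoxins, moved little. Its signal was 46.8 and 47.3 times the 75th percentile on Dex, 50.7 and 45.8 on FF, 45.6 and 45.1 on VSG22, and 51.4 and 42.3 on VSGC12 arrays, against 45.2 and 43.8 on EtoH arrays. Dex and FF lay above both EtoH arrays, while VSG22 and VSGC12 overlapped them. Its change was 0.07 ± 0.09 (log2, SE), with an interval of -0.13 to 0.27 and an adjusted p of 0.52.

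Gsr, glutathione reductase, was the 1 member that rose. Its signal was 56.2 and 73.9 times the 75th percentile on Dex, 67.3 and 74.2 on FF, 68.2 and 59.3 on VSG22, and 60.2 and 69.8 on VSGC12 arrays, against 34.5 and 36.4 on EtoH arrays. Every treated array lay above both EtoH arrays. The change was 0.89 ± 0.12 (log2, SE, adjusted p = 0.0015) in the mean of 4 and between 0.84 and 1.00 by compound, called for each. The Dex call was lost with normexp background correction (0.62, adjusted p = 0.065) and when only the Dex and EtoH arrays were fitted (0.86, adjusted p = 0.06), and the VSG22 call without VSG22 replicate 1 (0.74, adjusted p = 0.053). The second probe rose by 0.55 ± 0.10 (log2, SE, adjusted p = 0.0062), and it too lay in a local patch on FF replicate 2.

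The genes that make glutathione did not pass the test. Gclc and Gclm encode the catalytic and modifier subunits of the rate-limiting ligase, and Slc7a11 the cystine importer that supplies it. Gclm signal was 2.9 and 1.94 times the 75th percentile on Dex, 2.26 and 2.49 on FF, 2.46 and 2.55 on VSG22, and 2.26 and 1.92 on VSGC12 arrays, against 2.58 and 2.85 on EtoH arrays. Gclc signal was 6.04 and 4.63 times the 75th percentile on Dex, 5.68 and 5.83 on FF, 6.01 and 6.31 on VSG22, and 5.45 and 4.92 on VSGC12 arrays, against 5.58 and 5.12 on EtoH arrays. Slc7a11 signal was 4.06 and 3.01 times the 75th percentile on Dex, 3.49 and 3.81 on FF, 3.99 and 4.38 on VSG22, and 3.88 and 3.3 on VSGC12 arrays, against 2.94 and 3.88 on EtoH arrays. For each of the 3 genes, the range of the 8 treated arrays overlapped that of EtoH. Gclm changed by -0.22 ± 0.15 (log2, SE, interval -0.57 to 0.14), Gclc by 0.06 ± 0.11 (interval -0.19 to 0.32) and Slc7a11 by 0.14 ± 0.15 (interval -0.22 to 0.49). Without Dex replicate 1, Gclm was called in the mean of 4 (-0.29, adjusted p = 0.04) and in Dex (-0.48, adjusted p = 0.04). In VSGC12 it was called without Dex replicate 1, without Dex replicate 2 and without both (-0.38 and adjusted p = 0.041 each time). Slc7a11 gave 0.39 on slide 1 and -0.11 on slide 2. The Gclc probe lay in a local patch on Dex replicate 2.

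Nfe2l2 had no called change. Its signal was 31.2 and 26.8 times the 75th percentile on Dex, 26.6 and 23.7 on FF, 28.7 and 29.2 on VSG22, and 28.7 and 22.7 on VSGC12 arrays, against 31.4 and 32.8 on EtoH arrays. All 8 treated arrays lay below both EtoH arrays, by little for Dex replicate 1. Its change was -0.25 ± 0.11 (log2, SE, interval -0.50 to 0.01, adjusted p = 0.1), and between -0.15 in Dex and -0.35 in FF by compound. It was called in the mean of 4 without VSGC12 replicate 1 (-0.29, adjusted p = 0.042), with normexp (-0.26, adjusted p = 0.04) and with the 75th percentile taken over detected probes (-0.33, adjusted p = 0.047). In FF it was called lower under 6 settings, 2 of them the leaving out of VSGC12 replicate 1 or 2 (-0.35 to -0.44, adjusted p from 0.028 to 0.049), and in VSGC12 without VSGC12 replicate 1 (-0.50, adjusted p = 0.042). Groups that do not overlap were found for 6 of the 10 genes in the mean of 4, and for 47.6% of all genes.

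By compound, 4 of the 10 genes were called with Dex (32.2% of all genes), and 5 with FF (37.1%), VSG22 (30.6%) and VSGC12 (35.5%). In each case Gsr was the gene that rose, where 16.5% of all genes rose in Dex, 17.9% in FF, 16.1% in VSG22 and 17.2% in VSGC12. The members that fell numbered 3 with Dex (15.7% of all genes fell) and 4 with FF (19.1%), VSG22 (14.5%) and VSGC12 (18.3%). The arrays of a compound did not overlap those of EtoH for 7 members in Dex (70.1% of all genes), 9 in FF (73.8%), 9 in VSG22 (72.3%) and 7 in VSGC12 (72.4%). Sqstm1 was the call that Dex lacked. All 4 compounds were compared with the same 2 EtoH arrays, so their calls are not independent of each other. Within slide 1 and within slide 2, the mean of 4 gave -1.02 and -1.06 for Sqstm1, -0.90 and -0.93 for Srxn1, -0.69 and -1.02 for Prdx1, and 0.86 and 0.92 for Gsr. It gave -0.07 and -0.37 for Gclm, 0.05 and 0.07 for Gclc, 0.10 and 0.04 for Txnrd1, and -0.13 and -0.36 for Nfe2l2.

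**Figure D2:**
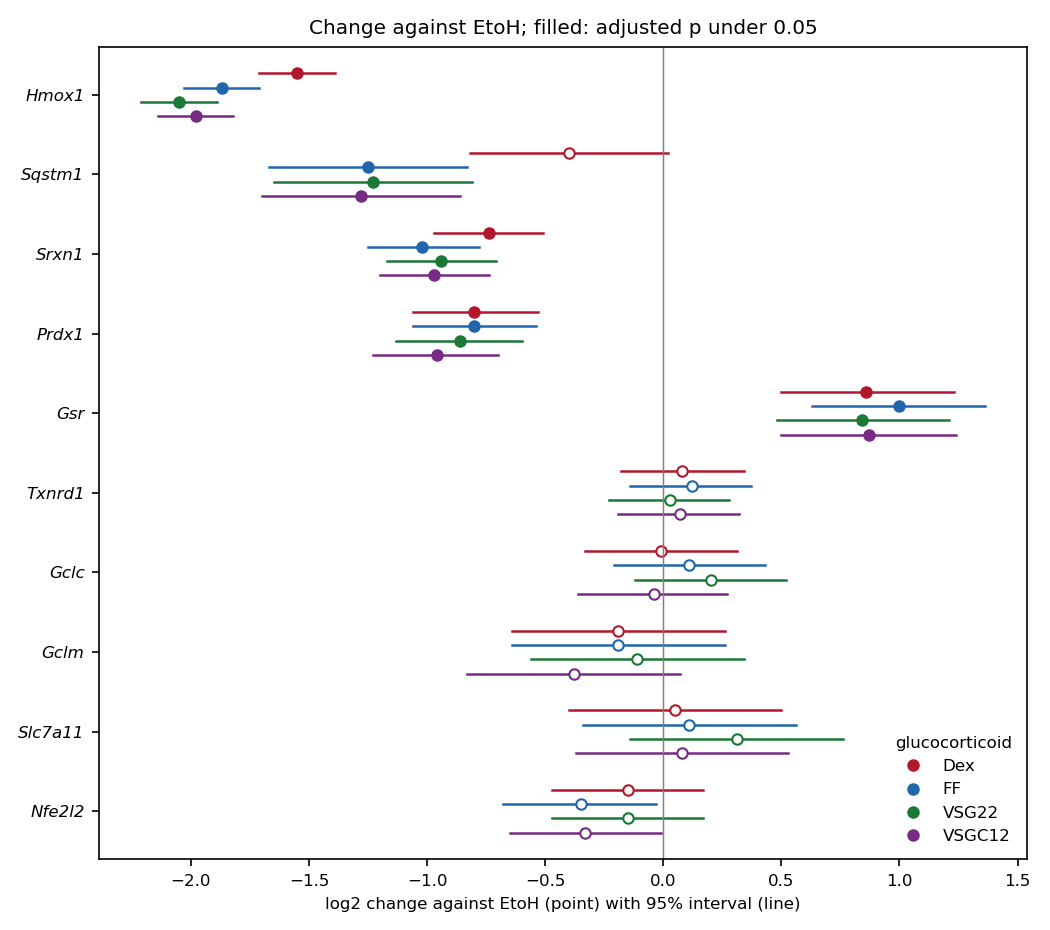
Log2 change of each gene against EtoH for the 4 glucocorticoids, with 95% intervals; filled points passed an adjusted p of 0.05. Hmox1 lies furthest left and the 4 compounds call the same direction for Hmox1, Srxn1, Prdx1 and Gsr, with Sqstm1 in Dex open. The 4 comparisons share the same EtoH arrays.

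**Figure D3:**
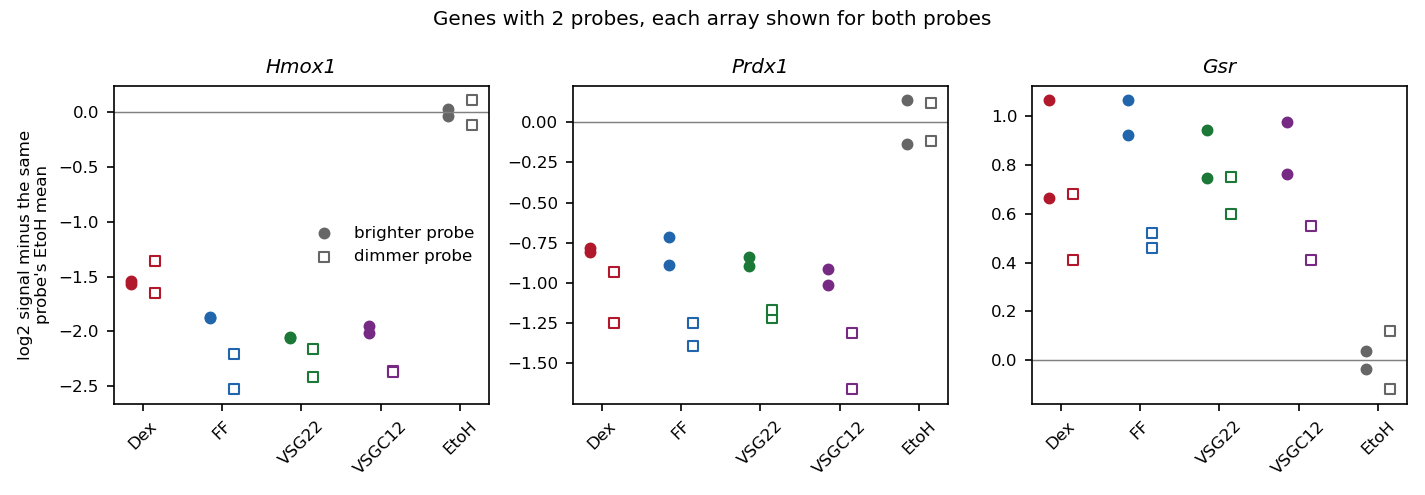
Log2 signal of both probes of Hmox1, Prdx1 and Gsr, 1 point per array, each probe set to its own EtoH mean. Both probes lie on the same side of EtoH on every treated array, and by group means the dimmer probe shows the larger fall for Prdx1 and the smaller rise for Gsr.

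The 4 compounds were also compared with each other at the same dose and time, in 6 pairs, giving 60 tests over the 10 genes. A single test was called, Hmox1 in VSG22 against Dex, at -0.50 ± 0.07 (log2, SE, interval -0.66 to -0.34, adjusted p = 0.04). In that pair 0.554% of all genes were called. Adjusted over genes and the 6 pairs together it did not pass (adjusted p = 0.085), nor did it with slide as a block (adjusted p = 0.051), and it lost the call when any single array other than Dex replicate 1 was left out (adjusted p from 0.077 to 0.26). Within slides the difference was -0.48 and -0.52. Hmox1 signal was 73.1 and 72.5 times the 75th percentile on VSG22 against 102 and 104 on Dex arrays, and the 2 groups did not overlap.

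The other Hmox1 differences from Dex were -0.32 for FF (adjusted p = 0.16) and -0.43 for VSGC12 (adjusted p = 0.085), neither of them called. Hmox1 lay lower in the compound named first than in Dex on both slides, in all 3 pairs, which share the same Dex arrays. Sqstm1 differed from Dex by -0.85 in FF (interval -1.27 to -0.43, adjusted p = 0.15), by -0.83 in VSG22 (-1.25 to -0.41, adjusted p = 0.11) and by -0.88 in VSGC12 (-1.30 to -0.46, adjusted p = 0.14), and none was called after adjustment. These intervals are not adjusted for the number of tests. Among the other 3 pairs, without Dex, no member was called. Their differences ran from -0.26 to 0.21, with intervals of 0.16 to 0.45 on either side, depending on the gene. The interval of Hmox1 in VSG22 against FF left out 0 before adjustment (-0.18, interval -0.34 to -0.02, adjusted p = 0.52). At an unadjusted p under 0.05, 8 of the 60 tests passed, all of Hmox1, Sqstm1 and Srxn1. The share of all genes at that unadjusted cut-off was not counted, so these passes are not read as an excess. All genes were called at 0.371% in FF against Dex, 0.393% in VSGC12 against Dex and 0.00555% in VSGC12 against FF, and none was called in VSG22 against FF or VSGC12 against VSG22. Arrays did not overlap for 4 members in FF against Dex (41.7% of all genes), 5 in VSG22 against Dex (50.6%), 4 in VSGC12 against Dex (43.6%), 5 in VSG22 against FF (49.5%), 3 in VSGC12 against FF (32.4%) and 5 in VSGC12 against VSG22 (44.9%). An F-test over the 4 compounds called none of the 10, against 0.255% of all genes. At an unadjusted p under 0.05 it passed 2 of 10, again with no share of all genes to set beside them.

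**Figure D4:**
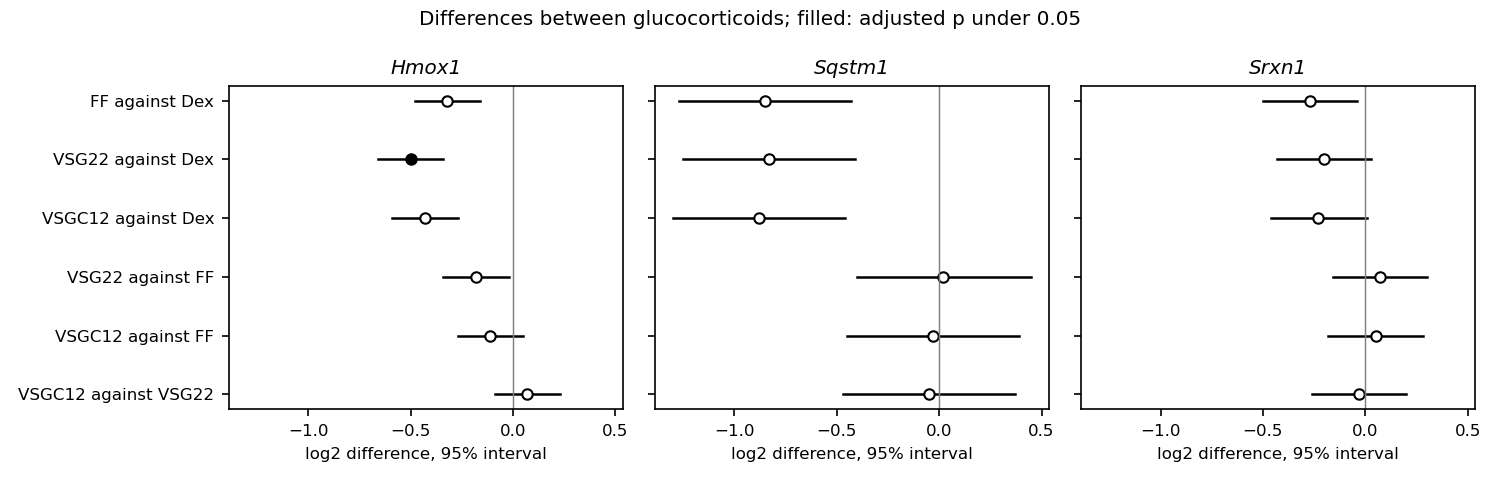
Log2 differences between glucocorticoids for Hmox1, Sqstm1 and Srxn1, with 95% intervals from limma; filled points passed an adjusted p of 0.05. The 3 comparisons with Dex lie below 0 in each panel, and only Hmox1 in VSG22 against Dex is filled.

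Other genes of the pathway were counted in 8 lists holding 93 tested genes, of which 31 rose and 15 fell in the mean of 4. The share called over all genes was 44.2% (21.6% higher and 22.5% lower) and the median change 0. By list, the share called ran from 11.1% (haem breakdown and ferritin) to 71.4% (detoxification and export). For NADPH supply and for NADPH oxidase and nitric oxide synthase it was 42.9% each, near that of all genes. No list was tested as a set. Scaling by array medians moved the median of all genes to 0.118 and left fewer calls, among them 0 lower in detoxification and export. The lists were drawn up with earlier results of these data known.

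Among 11 NRF2 regulators, 1 rose and 3 fell (median -0.19). The small MAF genes Maff and Mafk, partners of NRF2, changed by -0.85 and -0.53, and Bach1, the repressor of the same elements, by -0.40. The ligase subunit gene Rbx1 rose by 0.33. Of 12 glutathione genes, 6 rose and 1 fell (median 0.21). Glrx, glutaredoxin, rose by 1.32, and Glrx5, a mitochondrial glutaredoxin, and Gsto1, an omega-class glutathione transferase, by 0.51 each, while Slc3a2, which encodes the heavy chain of the cystine importer, fell by 0.41. Of 15 thioredoxin and peroxiredoxin genes, 7 rose and 1 fell (median 0.18). Prdx6 rose by 0.61, with its probe in a local patch, Txnrd3 by 0.54 and the mitochondrial Txn2 by 0.47, whereas Prdx5 fell by 0.36.

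Of the 4 superoxide dismutase and catalase genes tested, 2 rose: Sod2, the mitochondrial dismutase, by 0.27 and Ccs, the copper chaperone for Sod1, by 0.25. Of 14 genes of NADPH supply, 6 rose and 0 fell (median 0.19). Mthfd1 rose by 0.92, Idh2 by 0.80 and Mthfd2 by 0.79. Detoxification and export split, with 7 of 21 higher and 8 lower (median -0.01). Mgst2 rose by 1.90 and Mgst3 by 1.08, both microsomal glutathione transferases, and Gstp1 by 0.83, with its probe in a local patch. Gstt1 fell by 0.69 and Gstt2 by 0.60. Gstm2 changed by -0.69, but it was well above background on 0 of 2 VSGC12 arrays and 1 of 2 in each other treated group. Its size there is therefore a bound. Only EtoH passed the background mark on both arrays, so the filter admitted Gstm2 through the group where it was high. It is counted among the 8 lower, and with a filter on all 10 arrays the list held 19 genes, 7 of them lower. Gstm and Gstt paralogs may share probe signal.

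Of 9 haem and ferritin genes only Slc40a1 was called: ferroportin, the iron exporter, fell by 1.96. Its signal was dim, at 0.179 to 0.315 times the 75th percentile on treated arrays and 0.916 and 0.829 on EtoH arrays. The size of its change ran from -2.1 to -1.33 over the alternative settings. Of 7 genes of NADPH oxidase and nitric oxide synthase, 2 rose and 1 fell (median 0.17). Cybb, the catalytic subunit of the phagocyte oxidase, rose by 0.67 and Ncf1 by 0.31. Nos2, inducible nitric oxide synthase, fell by 1.49. The calls for Bach1, Ccs, Gstm2, Sod2, Ncf1 and Rbx1 were lost in 5 or more of the alternative settings.

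**Figure D5:**
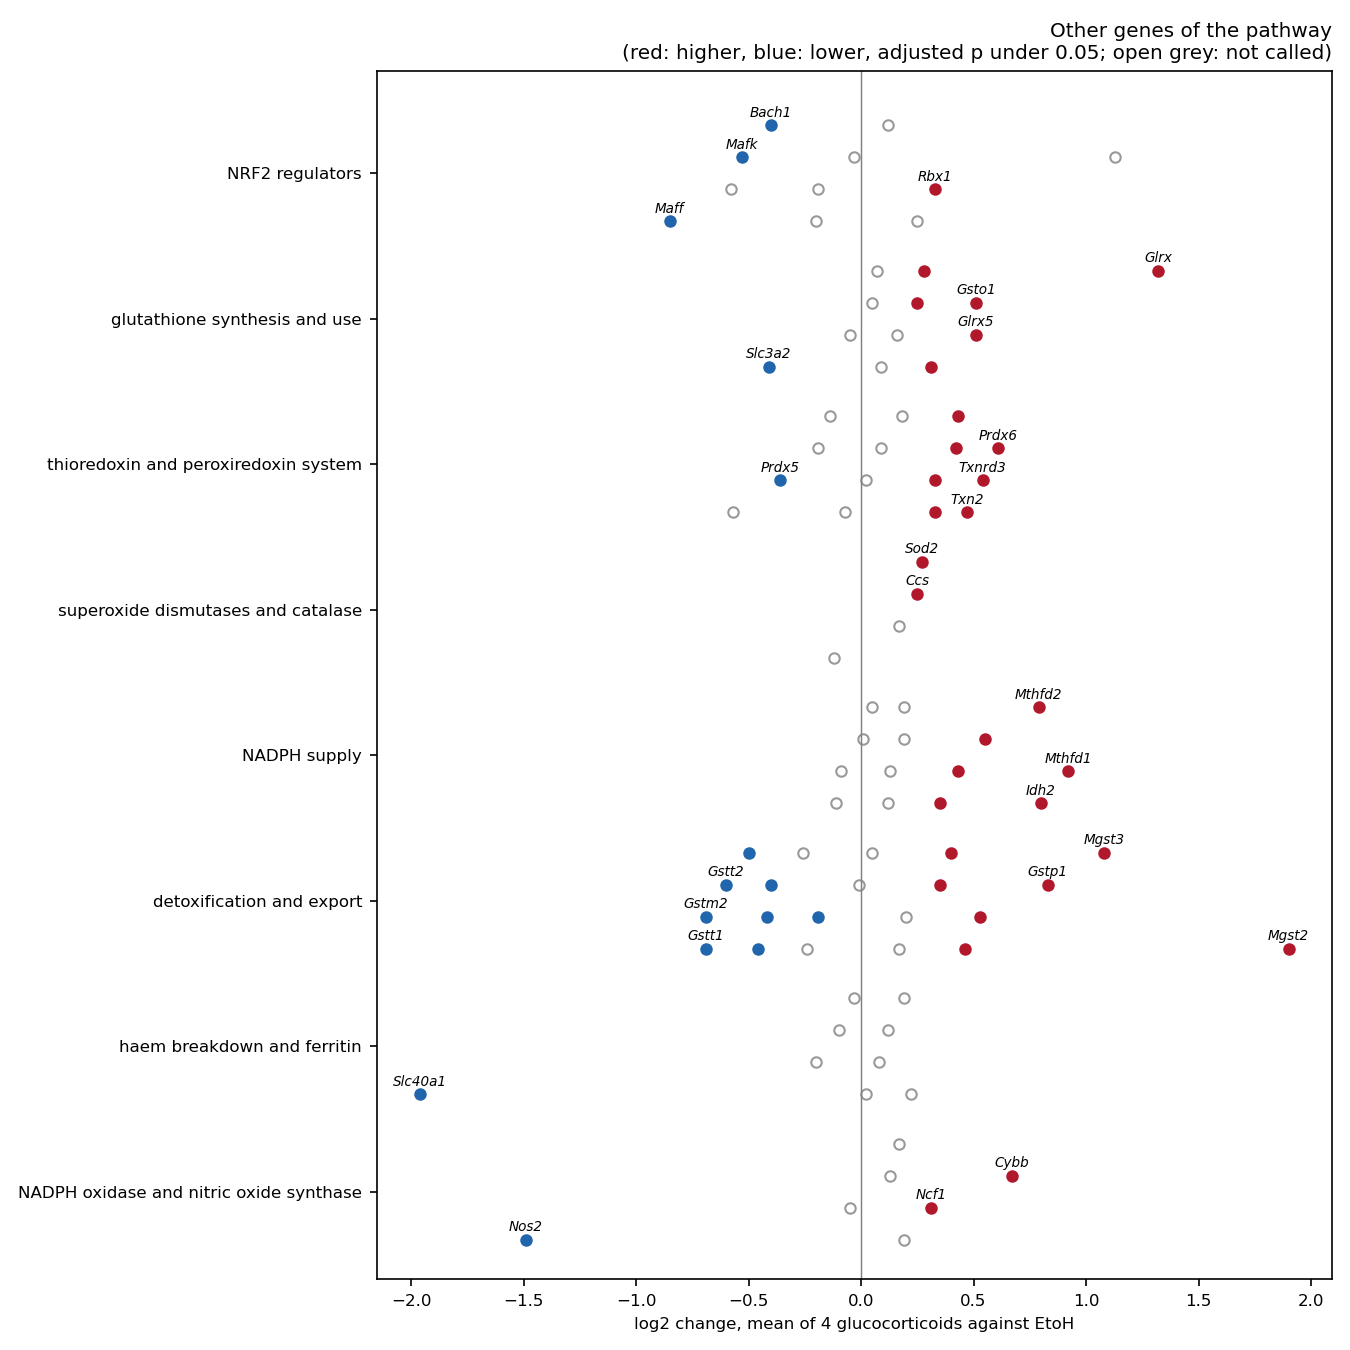
Log2 change in the mean of 4 glucocorticoids for each tested gene of the 8 lists, 1 point per gene; red points rose and blue points fell at an adjusted p under 0.05, and open grey points were not called. Mgst2 and Glrx lie furthest right among the called genes, and Slc40a1 and Nos2 furthest left.

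By the likeness of the 5 group means, Hmox1 was followed most closely by Id2 (root-mean-square difference of 0.05 log2 over 5 groups, among 12256 candidates), Ptafr (0.061), Aebp1 (0.073), Dusp10 (0.076) and Rgs1 (0.076). Id2 changed by -1.56 in Dex, -1.97 in FF, -2.11 in VSG22 and -2.11 in VSGC12. Nfe2l2 was followed by Sos2 (0.014), Rhno1 (0.015), Kansl3 (0.019), Ncor1 (0.019) and Nipal3 (0.019), whose changes in the mean of 4 ran from -0.29 to -0.24. Nfe2l2 itself had no called change, and the SE of its change in the mean of 4 (0.11 log2) is larger than these differences. Both sets were picked for likeness, so their changes follow from the pick, and shared regulation was not tested.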

How the data were processed

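Each array was read by the authors with Agilent Feature Extraction 10.7.3.1, per the file headers, and the deposited unit is intensity, given per spot raw and after the software's background subtraction (processed signal). The deposited files also carry other columns, such as flags for spots well above background. The submitters' processing notes list limma, with no step given. Spots flagged as non-uniform or outlying were left out, spots of the same probe were averaged as log2 processed signal, and each array's own 75th percentile was subtracted. A gene was represented by its brightest probe that passed the background mark on both arrays of some group, which left 18056 genes. All 5 groups of 2 arrays were fitted in R 4.3.3 by limma 3.58.1 (group as the term, moderated by eBayes, 5 residual and 1.81 prior degrees of freedom), with two-sided tests, Benjamini-Hochberg adjustment and a threshold of 0.05. Probe positions are on mm9, and genes were named through RefSeq on GRCm38.p6 where a match was found. Of the 55681 probes, 24674 had no match and kept the name given in the deposited data. The design had no block. Deviations from group means correlated by slide with r from -0.04 to 0.32 over genes, above 0.1 in 5 of the 10 pairs of groups. Slide as a block is an alternative, and values within slides are printed beside the main results. The members and lists were chosen with earlier results of these data known. All 10 members were named in comparisons with EtoH, called members in pairs, and the 3 highest and 3 lowest called genes per list. A gene of 1 list is not reported here and was left out of its counts. The fitting was tested on simulated data, but no result of that is given here, and it adds no support to the values above.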

Additional observations from a re-analysis of the deposited data

How the results depend on the processing

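In the mean of the 4 glucocorticoids, the calls of Hmox1 (-2 to -1.74), Sqstm1 (-1.25 to -0.89), Srxn1 (-1.01 to -0.80), Prdx1 (-1.06 to -0.69) and Gsr (0.72 to 1.02) held in all 25 alternatives that gave a test, with ranges that include the values within slides. Gclc has no value without probes in patches. Scaling by array medians cut member calls to 2 in Dex, 3 in VSG22, 3 in VSGC12 and, through the loss of Prdx1, 4 in FF. It moved the median of all genes from -0.004 to 0.118 and the share of calls that were higher to 70.3%, against 49% in the main processing and 38.5% with the 75th percentile taken over detected probes. Genes called in the mean of 4 ran from 3752 to 8934 (7962 in the main processing), in Dex from 2022 to 6335 (5819), in FF from 2492 to 7584 (6690), in VSG22 from 1786 to 5940 (5516), in VSGC12 from 2360 to 7159 (6411) and in VSG22 against Dex from 0 to 1215 (100). The causes were not tested.

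The 1 member call in VSG22 against Dex became 0 with normexp, both other scalings and quantile normalization, with no filter or a filter on all 10 arrays, with every probe on its own row, with the 2 groups alone, without patches, over 6 pairs together, at 0.01 and with slide as a replicate block. It was 0 to 1 when single arrays were left out. In VSGC12 against Dex, 1 member was called with trended, robust moderation. The replicate numbers follow the slides. Apart from this call, the block changed no call of the 10 members; among the lists it moved NRF2 regulators to 2 higher and 4 lower, thioredoxin genes to 7 and 2, detoxification to 8 and 6 (Gstm2 among the calls it ended), and haem and ferritin calls to 2.

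Calls per list under alternatives were as follows. NRF2 regulators had 2 with array medians, no filter and 0.01, 6 with detected probes, quantile and the slide block, and 2 to 6 with single arrays left out. Glutathione genes had 4 with detected probes, quantile and 0.01, 3 with array medians, and 4 to 7 with arrays left out. Thioredoxin genes had 2 with array medians. Dismutases had 1 with detected probes, 0 with array medians, quantile, no filter and 0.01, and 0 to 2 with arrays left out. Detoxification had 4 with array medians, 9 at 0.01, and 8 to 14 with arrays left out. Haem genes had 2 with detected probes and quantile, 3 with robust moderation, and 1 to 2 with arrays left out. Oxidase genes had 2 to 5 with arrays left out, the 5 without Dex replicate 1.

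Sign changes touched only changes that were not called. Gclc gave 0.03 (normexp) and 0.08 (array medians) in Dex, 0.13 (array medians) in VSGC12, and -0.02 (detected probes) and -0.01 (quantile) in the mean of 4. With arrays left out it ran from -0.21 to 0.18 in Dex and -0.12 to 0.03 in VSGC12. Gclm gave 0.01 in VSG22 (array medians) and -0.48 to 0.10 in Dex with arrays left out. Slc7a11 gave -0.05 (detected probes) and -0.01 (quantile) in Dex, and with normexp 0 in FF and -0.04 in VSGC12. With arrays left out it ran from -0.17 to 0.26 in Dex, -0.09 to 0.31 in FF, -0.12 to 0.28 in VSGC12 and -0.06 to 0.34 in the mean of 4. Txnrd1 gave, with detected probes and quantile, -0.02 and -0.06 in Dex, -0.03 and -0.02 in VSG22, -0.01 and -0.02 in VSGC12, and -0.01 and -0.02 in the mean of 4. With normexp it gave 0 in VSG22, and with arrays left out -0.07 to 0.21 in VSGC12.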
